A study of Mus musculus with 19 samples.

Results

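DNA replication and chromatin assembly genes were examined for CBFA2T2 binding in NE-4C cells, mouse neural stem cells grown as an established line that lacks p53. The set holds 49 of 21887 protein-coding genes, a list of helicase, origin, polymerase, clamp and histone chaperone genes. It was chosen with earlier results of these data known. All 49 were found in the RefSeq annotation of mm10. A gene counted as marked when a peak summit lay within 1 kb of either annotated end of the gene. Where several peaks met that rule, the one with the highest −log10 q stood for the gene. The lists hold 8272 peaks in H3.3K27M cells and 6920 in H3.3WT cells.

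Both lines had lost H3f3a, which codes for the histone variant H3.3, and stably expressed an HA-tagged H3.3 in its place, H3.3K27M with methionine at lysine 27 or wild-type H3.3. The labels do not say whether either line was 1 clone, and they name no change at H3f3b, the other gene for H3.3. Chromatin immunoprecipitation with an antibody to CBFA2T2, a corepressor of the MTG family, gave 1 peak list per line out of 19 libraries in the series. A further line lacking Cbfa2t2 was not analysed here, so the peaks were not set against cells without the target. With 1 library per genotype, no difference between H3.3K27M and H3.3WT could be tested. Peak lists hold no expression values, so neural stem cell markers could not be checked, and they hold no read counts, so depth is unknown.

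Replication starts when the origin recognition complex, with Cdc6 and Cdt1, loads the Mcm2 to Mcm7 helicase onto DNA, and geminin blocks a repeat within the same cycle. The kinase Cdc7 then lets Cdc45 and the GINS complex join the helicase, and polymerases alpha, delta and epsilon copy the strands with the help of the sliding clamp PCNA and its loader RFC. Histone chaperones such as CAF-1, ASF1 and NASP rebuild nucleosomes behind the fork. Many of these genes are known targets of E2F factors, are transcribed towards the S phase of dividing cells, and have promoters rich in CG dinucleotides.

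The promoters printed here carry the main contrasts among the members. Pole3 and Cdc45 had high peaks common to both lists, and Rfc3 had by −log10 q the strongest peak found in H3.3K27M alone. Orc6 had the strongest in H3.3WT alone among members with a promoter sequence available. Gins1, without such a sequence, had a stronger peak in H3.3WT alone, with −log10 q of 18.8 against 5.95 for Orc6. Mcm3 and Mcm6 code for subunits of a single helicase, with and without a peak. Each run covers 250 bases before to 50 after the annotated start of transcription, 5′ to 3′ on the strand of the gene, from RefSeq on GRCm38.p6, the assembly of mm10. The windows are chr4:62524965-62525264 (minus strand) for Pole3, chr16:18811923-18812222 (minus) for Cdc45, chr5:151651159-151651458 (minus) for Rfc3, chr8:85299382-85299681 (plus) for Orc6, chr1:20820263-20820562 (minus) for Mcm3 and chr1:128359656-128359955 (minus) for Mcm6. Capitals mark matches to the motifs searched, which are spelled out further on.
Pole3: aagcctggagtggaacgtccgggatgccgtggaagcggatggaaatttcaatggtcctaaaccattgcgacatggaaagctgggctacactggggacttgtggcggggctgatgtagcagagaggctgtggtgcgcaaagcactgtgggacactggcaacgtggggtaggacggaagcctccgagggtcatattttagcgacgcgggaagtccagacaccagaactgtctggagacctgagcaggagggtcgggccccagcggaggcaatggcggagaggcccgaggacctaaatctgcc
Cdc45: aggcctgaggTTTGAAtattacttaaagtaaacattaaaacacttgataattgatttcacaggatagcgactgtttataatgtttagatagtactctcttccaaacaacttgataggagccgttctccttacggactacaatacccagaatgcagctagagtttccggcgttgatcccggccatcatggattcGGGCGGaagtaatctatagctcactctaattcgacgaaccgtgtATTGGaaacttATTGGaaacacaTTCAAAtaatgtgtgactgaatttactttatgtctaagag
Rfc3: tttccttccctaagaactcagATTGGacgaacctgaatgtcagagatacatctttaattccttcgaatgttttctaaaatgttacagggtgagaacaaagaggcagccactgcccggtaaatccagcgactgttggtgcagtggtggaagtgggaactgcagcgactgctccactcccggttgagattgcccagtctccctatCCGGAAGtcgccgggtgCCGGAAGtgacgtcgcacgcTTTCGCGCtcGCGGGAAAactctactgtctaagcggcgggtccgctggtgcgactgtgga
Orc6: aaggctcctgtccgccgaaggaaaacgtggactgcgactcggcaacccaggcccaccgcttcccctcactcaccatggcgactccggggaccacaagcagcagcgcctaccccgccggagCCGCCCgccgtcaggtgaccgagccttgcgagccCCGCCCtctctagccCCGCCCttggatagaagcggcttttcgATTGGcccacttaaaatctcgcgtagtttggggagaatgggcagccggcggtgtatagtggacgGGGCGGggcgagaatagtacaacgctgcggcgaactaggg
Mcm3: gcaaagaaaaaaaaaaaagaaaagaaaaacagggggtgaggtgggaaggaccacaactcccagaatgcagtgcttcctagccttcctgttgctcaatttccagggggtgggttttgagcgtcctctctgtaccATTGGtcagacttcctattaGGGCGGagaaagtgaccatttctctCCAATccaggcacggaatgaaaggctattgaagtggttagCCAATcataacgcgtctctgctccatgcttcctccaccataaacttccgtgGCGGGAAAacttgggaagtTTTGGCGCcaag
Mcm6: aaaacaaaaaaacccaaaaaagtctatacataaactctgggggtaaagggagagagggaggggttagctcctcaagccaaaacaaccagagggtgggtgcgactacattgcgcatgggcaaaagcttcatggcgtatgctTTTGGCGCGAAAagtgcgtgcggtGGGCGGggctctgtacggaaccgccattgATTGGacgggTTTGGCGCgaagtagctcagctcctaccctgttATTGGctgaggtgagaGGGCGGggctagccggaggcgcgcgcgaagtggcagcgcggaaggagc

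CBFA2T2 peaks stood at the ends of 28 of the 49 members in H3.3K27M cells (57.1%, 95% Wilson interval 43.3 to 70.0%) and at 28 in H3.3WT cells (57.1%, the same interval). Among all protein-coding genes the shares were 28.6% in H3.3K27M and 24.8% in H3.3WT. A peak in both lists was found at 23 members (46.9%), and 16 members had none at a gene end in either list (32.7%). Of all genes, 22.2% were marked in both lists, 6.39% in H3.3K27M alone and 2.60% in H3.3WT alone, and the rest in neither. All protein-coding genes include genes silent in these cells, and without expression values no comparison with active genes was made. Of the 28 member peaks in each list, 23 overlapped a peak of the other list (82.1%, 64.4 to 92.1%), compared with 77.3% in H3.3K27M and 89.5% in H3.3WT over all marked genes. At the 23 genes marked in both lists the summits lay 2 to 239 bp apart, with a median of 29 bp, beside a median of 41 bp over 4857 such genes. The intervals cover counting error over genes only, and genes are not replicates. Since the set was chosen with earlier results of these data known, the shares are descriptive and no independent test of enrichment.

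The strength of a peak is given below as its fold, the authors' ratio of ChIP signal over local background at the summit, and as its −log10 q, both made within a single list. Folds of the H3.3K27M and H3.3WT lists are given next to each other and never divided into a change. Marked members had a median fold of 6.99 in H3.3K27M and 7.14 in H3.3WT, close to the medians of 6.29 and 6.91 over all marked genes in these lists. Their −log10 q ran between 3.49 and 229 in H3.3K27M and between 3.095 and 244 in H3.3WT.

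**Figure D1:**
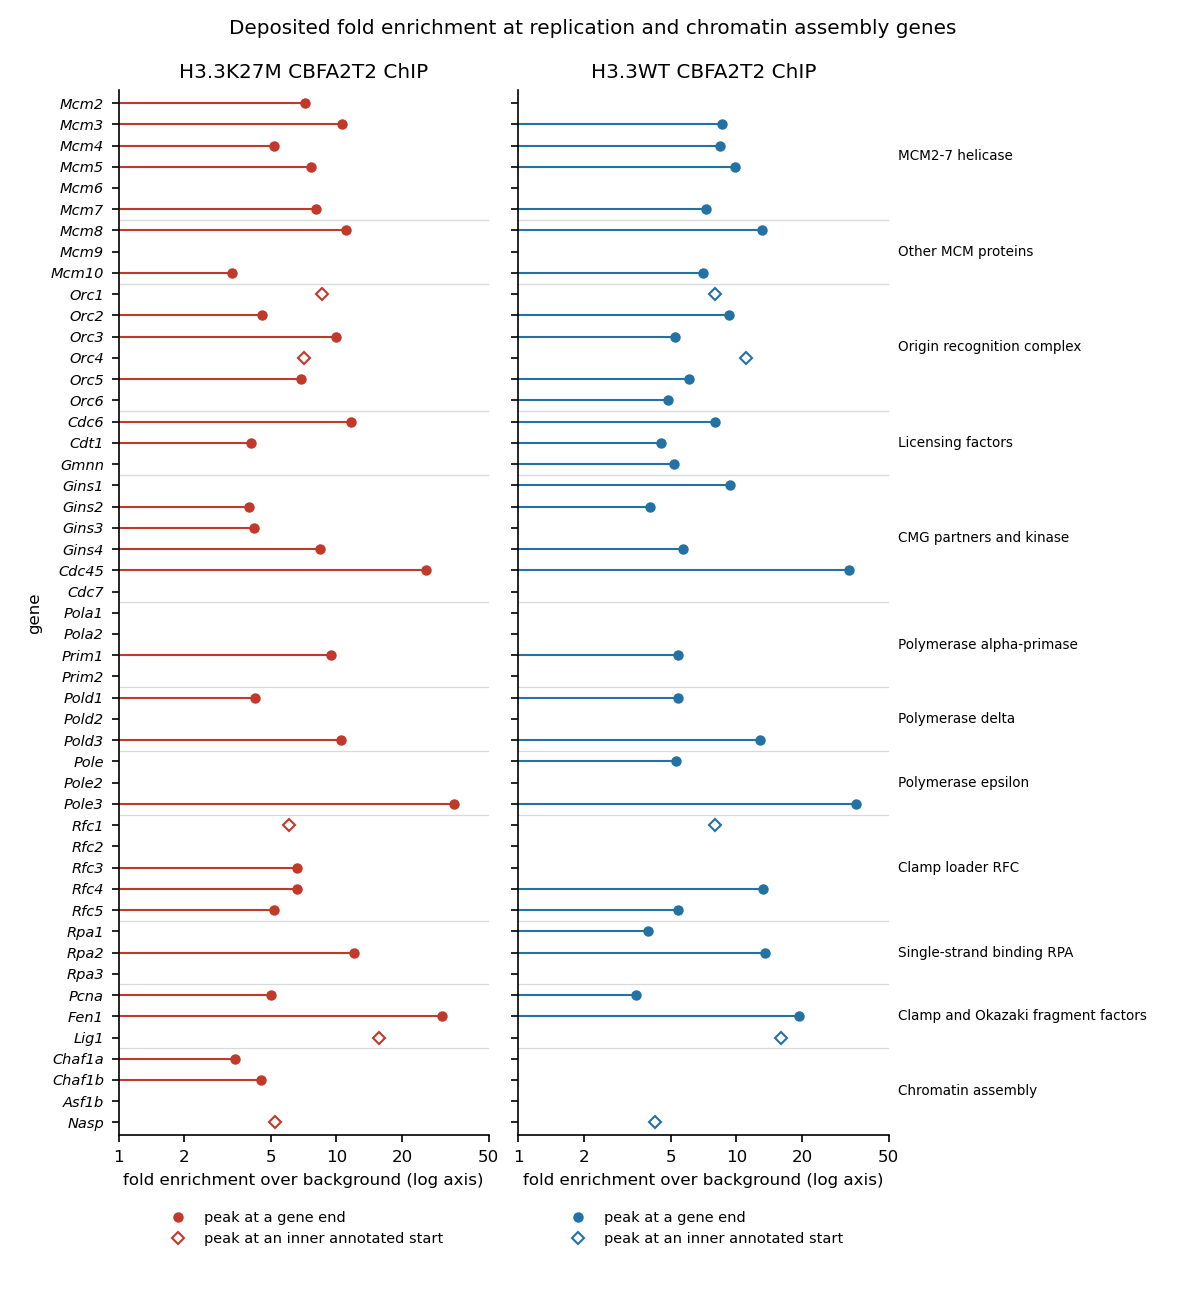
Deposited fold enrichment (log axis) of the CBFA2T2 peak at each of the 49 genes in H3.3K27M (left) and H3.3WT (right). Filled circles are peaks at a gene end, open diamonds are peaks at an annotated start further inside the gene, and a row with neither had no peak by these rules. Pole3, Cdc45 and Fen1 reach the highest folds in both panels.

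Pole3, Cdc45 and Fen1 carried the strongest peaks of the set, and they were the members above the 95th percentile of −log10 q in either list. Pole3 (chromosome 4, 62523798 to 62525014) codes for a small histone-fold subunit of polymerase epsilon and had 34.5 fold in H3.3K27M, against 35.5 in H3.3WT. Its peak ranked 67 by fold in H3.3K27M and 47 in H3.3WT, with −log10 q of 229 in H3.3K27M and 244 in H3.3WT. Cdc45 (chromosome 16, 18780447 to 18811972), the helicase partner, had 25.7 fold in H3.3K27M, against 32.9 in H3.3WT. Fen1 (chromosome 19, 10199132 to 10204393), the nuclease that trims Okazaki fragments, had 30.5 fold in H3.3K27M, against 19.4 in H3.3WT. All 3 genes share their peak with another protein-coding gene that begins close by. In the printed Pole3 promoter the summits fell on base 63 in H3.3K27M and base 90 in H3.3WT, and in the printed Cdc45 promoter on base 153 in H3.3K27M and base 210 in H3.3WT.

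Peaks of the helicase genes were of moderate height and common to both lists for most subunits. The MCM proteins Mcm2 to Mcm7 form the ring that unwinds DNA. Of the 6 genes, 5 were marked in H3.3K27M and 4 in H3.3WT, beside 28.6% and 24.8% of all genes. Mcm3 had 10.6 fold in H3.3K27M, against 8.62 in H3.3WT, with summits downstream of its start by 12 bp (H3.3K27M) and 2 bp (H3.3WT). Mcm5 had 7.62 fold in H3.3K27M, against 9.90 in H3.3WT, Mcm7 had 8.06 (H3.3K27M) and 7.23 fold (H3.3WT), and Mcm4 had 5.14 (H3.3K27M) and 8.40 fold (H3.3WT). Mcm2 had a peak of 7.14 fold (−log10 q of 8.66) in H3.3K27M, and the nearest H3.3WT summit lay 314630 bp away. Mcm6 had none at its ends, the nearest summits being 87493 bp away in H3.3K27M and 32764 bp in H3.3WT. The printed promoters of Mcm3 and Mcm6 both hold CCAAT, GC box and E2F matches.

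Among the further MCM genes, Mcm8, which pairs with Mcm9 in recombination, had 11.1 fold in H3.3K27M, against 13.1 in H3.3WT. Mcm10, a factor that helps to activate the helicase, had a fold of 3.33 in H3.3K27M, with −log10 q of 3.49, against 7.05 in H3.3WT, with −log10 q of 13.0. Mcm9 had no peak at its ends. A peak inside Mcm9, with 3.20 fold in H3.3K27M, against 6.09 in H3.3WT, lay at an end of the histone chaperone gene Asf1a, which is situated within the Mcm9 span.

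Origin recognition genes were marked at 3 of 6 in H3.3K27M and 4 of 6 in H3.3WT, and licensing genes at 2 of 3 in H3.3K27M and 3 of 3 in H3.3WT, beside 28.6% and 24.8% of all genes. Orc2 had 4.53 fold in H3.3K27M, against 9.27 in H3.3WT, Orc3 had 9.94 (H3.3K27M) and 5.21 fold (H3.3WT), and Orc5 had 6.85 (H3.3K27M) and 6.07 fold (H3.3WT). Orc6, whose product completes the complex, had no peak in H3.3K27M, where the nearest summit lay 184251 bp away, against 4.88 fold in H3.3WT (−log10 q of 5.95). Cdc6, the helicase loader, had 11.7 fold in H3.3K27M, against 7.96 in H3.3WT. The Cdc6 summits lay upstream of its annotated start by 529 bp (H3.3K27M) and 527 bp (H3.3WT). From the 5′ end of the Cdc6 gene span they lay 87 bp (H3.3K27M) and 85 bp (H3.3WT) away. Cdt1, its partner in loading, was weaker, with 4.07 (H3.3K27M) and 4.53 fold (H3.3WT). Gmnn, which codes for geminin, the inhibitor of Cdt1, had 5.18 fold (−log10 q of 5.83) in H3.3WT alone. Orc1 and Orc4 had no peak at a gene end but had 1 at an inner start, described below.

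Of the 6 activation genes (the GINS subunits, Cdc45 and Cdc7), 4 were marked in H3.3K27M and 4 in H3.3WT. The shares of all genes were 28.6% and 24.8%. Of the GINS subunits, Gins4 had 8.38 fold in H3.3K27M, against 5.69 in H3.3WT, and Gins2 had 3.97 (H3.3K27M) and 4.00 fold (H3.3WT). Gins3 was marked in H3.3K27M alone, at 4.20 fold (−log10 q of 5.88). At Gins1 the nearest H3.3K27M summit lay 4673 bp away, at 8.39 fold and at an end of the neighbouring gene Abhd12, against an H3.3WT peak of 9.38 fold (−log10 q of 18.8) with its summit 11 bp from the Gins1 end. A further H3.3WT peak of 3.47 fold lay at Abhd12, 4765 bp from Gins1. Gins2 and Gins4 were thus marked in both lists, and Gins1 and Gins3 in 1 list each. Over all genes, 22.2% were marked in both lists, 6.39% in H3.3K27M alone and 2.60% in H3.3WT alone. Cdc7, the kinase gene, had its nearest summits 267853 bp away in H3.3K27M and 267852 bp in H3.3WT.

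Polymerase genes differed by subunit. Of the alpha and primase genes, which lay down the RNA-DNA primers, Prim1 alone was marked, at 9.40 fold in H3.3K27M, against 5.42 in H3.3WT, and Pola1, Pola2 and Prim2 had no peak at a gene end. For polymerase delta, the lagging strand enzyme, Pold3 had 10.5 fold in H3.3K27M, against 12.8 in H3.3WT, the catalytic subunit gene Pold1 had 4.23 (H3.3K27M) and 5.37 fold (H3.3WT), and Pold2 had none. For polymerase epsilon, the leading strand enzyme, the catalytic subunit gene Pole had 5.29 fold (−log10 q of 5.70) in H3.3WT alone and Pole2 had none, beside the high peak of Pole3. Alpha and primase genes were marked at 1 of 4 in both lists, a share near that of all genes.

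At the clamp and its loader, Rfc4 had 6.59 fold in H3.3K27M, against 13.2 in H3.3WT, and Rfc5 had 5.16 (H3.3K27M) and 5.42 fold (H3.3WT). Rfc3 was marked in H3.3K27M alone, at 6.61 fold (−log10 q of 9.38), with its summit on the first transcribed base. The nearest H3.3WT summit lay 274001 bp from Rfc3. Pcna, the clamp itself, had 5.003 fold in H3.3K27M (−log10 q of 10.9), against 3.44 in H3.3WT (−log10 q of 4.30). Its summits lay downstream of the start by 242 bp (H3.3K27M) and 3 bp (H3.3WT). A stronger peak of 9.07 fold in H3.3K27M, against 8.57 in H3.3WT, lay beyond the other end of Pcna, by 1439 bp (H3.3K27M) and 1477 bp (H3.3WT), with no other protein-coding gene end within 1 kb. The single-strand binding gene Rpa2 had 12.1 (H3.3K27M) and 13.5 fold (H3.3WT), Rpa1 had 3.95 fold in H3.3WT alone, and Rpa3 had none.

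Of the 4 chromatin assembly genes, 2 had a gene end peak in H3.3K27M and 0 in H3.3WT, beside 28.6% and 24.8% of all genes. The difference was not tested. Chaf1a and Chaf1b code for the CAF-1 subunits that place H3-H4 on new DNA, and reached in H3.3K27M a fold of 3.44 with −log10 q of 4.16 at Chaf1a, and of 4.53 with −log10 q of 4.55 at Chaf1b. Neither had an H3.3WT summit within 1 kb, the nearest being 6986 bp from Chaf1a and 51666 bp from Chaf1b. Both H3.3K27M peaks are weak, at percentile 16.6 (Chaf1a) and 20.2 (Chaf1b) of their list by −log10 q. Neither reaches a −log10 q of 5. A further H3.3K27M peak of 4.69 fold (−log10 q of 9.42) lay 3668 bp from Chaf1a, at an end of Sh3gl1, and overlapped no H3.3WT peak. Asf1b, an H3-H4 chaperone, had no gene end peak, its nearest summits lying 2610 bp away in H3.3K27M and 2726 bp in H3.3WT, at an end of Prkaca. Nasp, a chaperone of the H3-H4 reserve, had a peak at an inner start in both lists.

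**Figure D2:**
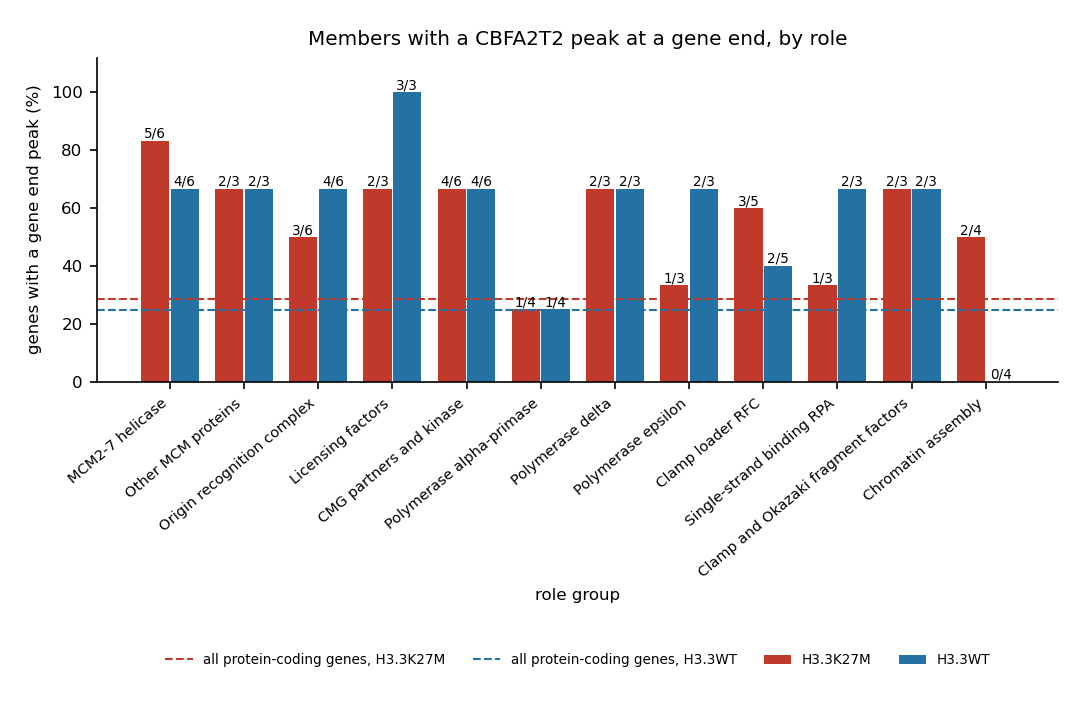
Share of the genes of each role group with a gene end peak in H3.3K27M (red, left bar) and H3.3WT (blue, right bar), with counts above the bars and dashed lines for all protein-coding genes (28.6% and 24.8%). Polymerase alpha and primase genes stand near the lines at 1 of 4 in both lists, and chromatin assembly genes have 2 of 4 in H3.3K27M and 0 of 4 in H3.3WT.

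Of the 49 members, 10 were marked in a single list. Mcm2, Gins3, Rfc3, Chaf1a and Chaf1b made up the 5 found in H3.3K27M alone (10.2%, against 6.39% of all genes), and Orc6, Gmnn, Gins1, Pole and Rpa1 the 5 found in H3.3WT alone (10.2%, against 2.60% of all genes). Those in H3.3K27M alone lay between the 16.6 and 49.3 percentiles of −log10 q in that list. Those in H3.3WT alone lay between 26.2 and 72.4, the highest being Gins1 and the next Orc6 at 28.8. Over all genes the median percentile of such peaks was 25.6 in H3.3K27M and 20.2 in H3.3WT, against 70.2 and 64.7 for genes marked in both lists. The ranges overlap among the members, where peaks common to both lists went down to percentile 12.0 in H3.3K27M (Mcm10) and 7.74 in H3.3WT (Gins2). At −log10 q of 5 or more, Chaf1a and Chaf1b leave the genes marked in H3.3K27M alone, and Gins2, Orc3 and Pcna join them. Whether they would recur in a second library could not be tested.

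**Figure D3:**
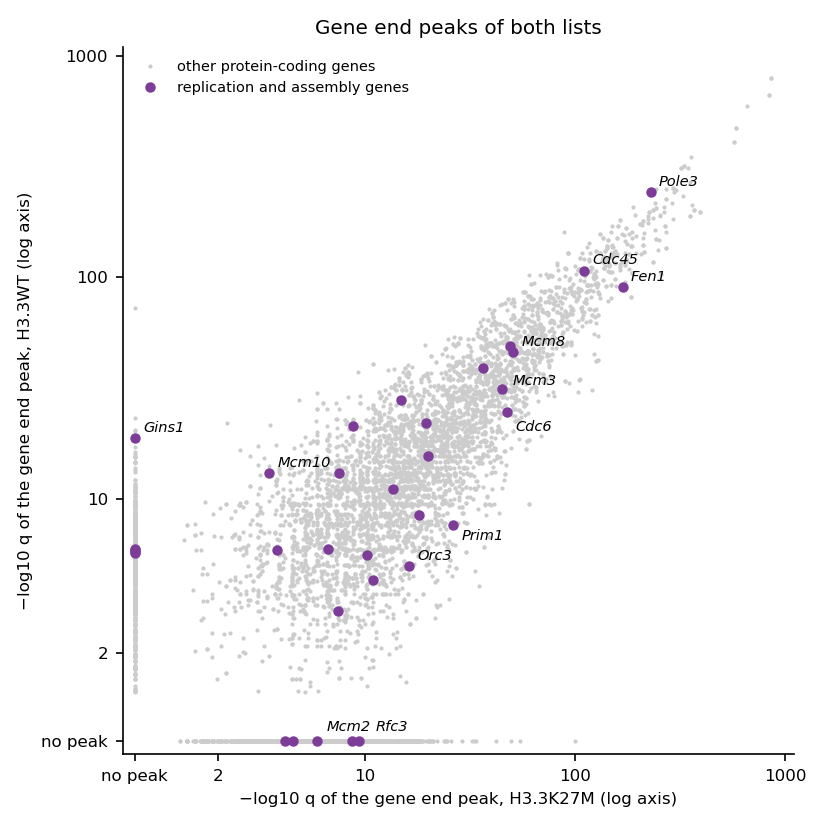
−log10 q of the gene end peak in H3.3K27M (horizontal) and H3.3WT (vertical), both on log axes, for marked members (purple) and other marked protein-coding genes (grey), with genes lacking a peak in a list placed at "no peak". Pole3, Cdc45 and Fen1 lie at the upper right, Gins1 stands highest among members marked in H3.3WT alone, and the 5 members marked in H3.3K27M alone lie at −log10 q of 9.38 or below.

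Where a start was annotated, the peak that stood for a member lay near it in nearly all cases. The promoter table gave a start and strand for 41 of the 49 members, all but Mcm4, Gmnn, Gins1, Gins2, Gins4, Prim2, Pole and Rfc2. Of the marked members with a start, 24 of 25 in H3.3K27M (96.0%) and 21 of 22 in H3.3WT (95.5%) had the summit within 250 bp of it, against 78.1% and 79.2% of all marked genes. The exception in both lists was Cdc6, whose annotated start lies inside its gene span. Its summits lay 87 bp (H3.3K27M) and 85 bp (H3.3WT) from the 5′ end of that span. Mcm7 had a further, weaker peak beyond its far end, with 3.63 fold at 800 bp in H3.3K27M and 4.69 fold at 394 bp in H3.3WT. An end of the neighbouring gene Cops6 also lay within 1 kb of this peak in both lists. Median distances were 60 bp in H3.3K27M and 44 bp in H3.3WT, beside 98 and 92 bp over all marked genes. Summits lay upstream of the start at 17 members in H3.3K27M (68%) and 16 in H3.3WT (72.7%), against 55.9% and 60.2% of all marked genes. Downstream summits were found at 7 and 6 members.

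**Figure D4:**
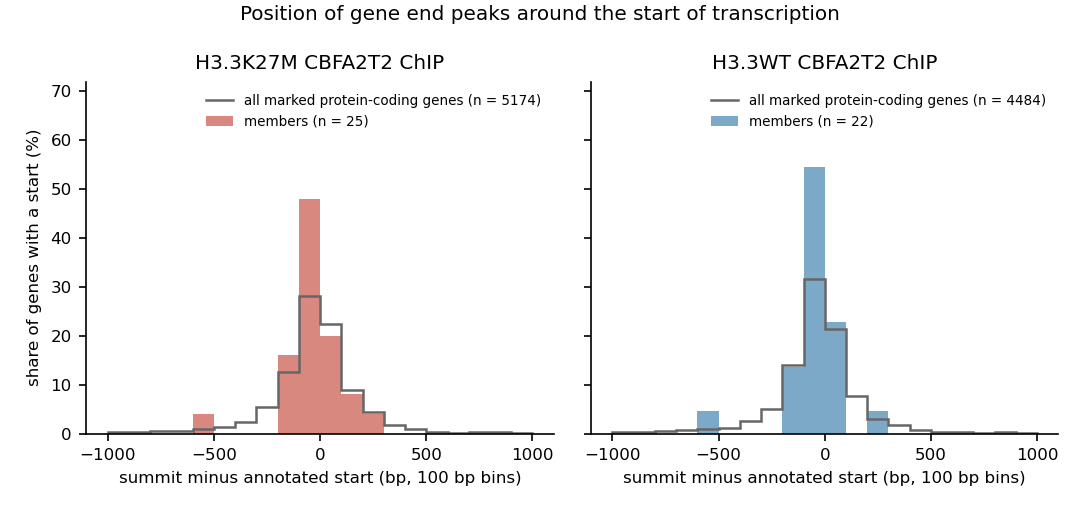
Position of the gene end summit relative to the nearest annotated start (bp, 100 bp bins, positive downstream) for members (bars) and all marked protein-coding genes (line), as a share of genes with an annotated start, in H3.3K27M (left) and H3.3WT (right). The largest bin of the members in both panels is the 100 bp just upstream of the start, and Cdc6 is the bar beyond 500 bp upstream.

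A further 5 members had a peak near an annotated start inside the gene span, with its summit more than 1 kb from either gene end, and these peaks were common to both lists. Lig1, the DNA ligase gene that seals Okazaki fragments, had 15.7 fold in H3.3K27M, against 15.9 in H3.3WT, upstream of such a start by 47 bp (H3.3K27M) and 105 bp (H3.3WT). Orc1, the ATPase subunit gene of the origin complex, had 8.57 (H3.3K27M) and 7.998 fold (H3.3WT), Orc4 had 7.08 (H3.3K27M) and 11.04 fold (H3.3WT), and Rfc1, the large subunit gene of the clamp loader, had 6.04 (H3.3K27M) and 7.998 fold (H3.3WT). Nasp had 5.201 fold in H3.3K27M, against 4.25 in H3.3WT, with summits 1208 bp (H3.3K27M) and 1493 bp (H3.3WT) from the gene end, just outside the 1 kb limit, and downstream of a start by 483 bp (H3.3K27M) and 768 bp (H3.3WT). Just inside it, the Mcm7 summits lay 912 bp (H3.3K27M) and 849 bp (H3.3WT) from the gene end but 67 bp (H3.3K27M) and 4 bp (H3.3WT) from an inner start. The peaks of Orc1, Orc4 and Lig1 also lay at an end of Prpf38a, Mbd5 and Zswim9.

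With annotated starts counted in place of gene ends, 30 of the 41 members with a start were marked in H3.3K27M (73.2%) and 27 in H3.3WT (65.9%), against 30.9% and 26.7% of 17492 genes. With a gene end or a start, 33 of 49 members were marked in each list (67.3%), against 30.9% of all genes in H3.3K27M and 26.7% in H3.3WT. By this wider rule 28 members were marked in both lists and 11 in neither. For all genes this rule was counted per list only, so these counts have no share of all genes beside them. The 11 were Mcm6, Mcm9, Cdc7, Pola1, Pola2, Prim2, Pold2, Pole2, Rfc2, Rpa3 and Asf1b. For 9 of them no summit lay within 10 kb of a gene end in either list, the exceptions being Pole2 and Asf1b.

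Several members have the end of a neighbour near their peak, so by the rule of gene ends such a peak cannot be given to 1 gene. In H3.3K27M 9 of 28 marked members (32.1%) and in H3.3WT 11 of 28 (39.3%) had the end of another protein-coding gene within 1 kb of the summit, against 34.7% and 36.8% of all marked genes. Mcm4 stands back to back with Prkdc, a DNA repair kinase gene, and its summits lay 154 bp (H3.3K27M) and 124 bp (H3.3WT) from the Mcm4 end and 110 bp (H3.3K27M) and 80 bp (H3.3WT) from that of Prkdc. For Mcm8 the neighbour was the tRNA methyltransferase gene Trmt6, for Orc3 the mitochondrial tRNA synthetase gene Rars2, for Cdc45 the ubiquitin fusion degradation gene Ufd1, and for Fen1 the gene Tmem258. The Pole3 summit lay 188 bp (H3.3K27M) and 161 bp (H3.3WT) from the Pole3 start, and 167 bp (H3.3K27M) and 194 bp (H3.3WT) from that of 4933430I17Rik. Further pairs were Mcm7 with Ap4m1 and Pcna with Cds2 in both lists, and Pold1 with Nr1h2 in H3.3K27M. In H3.3WT they were Orc6 with Vps35, Pole with Pxmp2 and Rpa1 with Smyd4. The Pold1 summit in H3.3K27M lay 80 bp from the Pold1 start and 881 bp from the far end of Nr1h2, whose start lay 5230 bp away. Orc2, Orc5, Gins2, Gins4 and Rfc5 had instead the end of a long noncoding RNA gene within 1 kb of their summits in both lists.

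Promoter sequences were searched on both strands, with 1 window of 300 bases per gene at the start nearest to its 5′ end. The E2F motif was searched as TTTCGCGC, TTTGGCGC, TTTCCCGC and TTTGCCGC, the CHR element as TTTGAA and TTTAAA, the CCAAT box as CCAAT, the GC box as GGGCGG, and the ETS motif as CCGGAAG. E-boxes were searched as CAGCTG and CACGTG and the CRE as TGACGTCA. An E2F match and a GC box can share bases. E2F letters were found in 15 of 41 member promoters (36.6%), against 5.21% of 5628 genes with a gene end peak and 2.94% of all 17492 genes. The 15 were Cdc6, Cdt1, Gins3, Mcm3, Mcm5, Mcm6, Mcm7, Mcm8, Orc1, Orc3, Pola1, Pold1, Pold3, Pole2 and Rfc3. They were found in 11 of 27 members with a gene end peak (40.7%) and in 4 of 14 without (28.6%). Those 14 include members with a peak at an inner start, among them Orc1, which holds E2F letters. Of the 9 members with a start but no peak at a gene end or start, 3 held E2F letters (33.3%). The difference was not tested.

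Other motifs differed less between members and genes in general. CCAAT boxes stood in 26 of 41 member promoters (63.4%, against 40.5% of genes with a peak and 39.2% of all genes), ETS letters in 16 (39.0%, against 25% and 11.9%), and GC boxes in 30 (73.2%, against 66.5% and 46.3%). CHR elements stood in 19.5% of member promoters, against 18.9% of genes with a peak and 25.5% of all genes. The CAGCTG E-box, a form bound by the E proteins that MTG corepressors are known to join, stood in 5 of 41 (12.2%), against 12.2% and 15.1%. The CACGTG E-box stood in 14.6% (against 11.9% and 7.91%) and the CRE in 4.88% (against 4.55% and 2.33%). In the printed promoters, Rfc3 holds E2F letters at bases 241 to 248 and 251 to 258, with its H3.3K27M summit on base 251. Mcm6, without a peak, holds 3 E2F matches, at bases 141 to 148, 145 to 152 and 204 to 211. The first of these shares bases with the next. The Pole3 promoter, with the highest fold of the set, holds none of the motifs. A match describes letters and does not show binding of a factor.

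CG dinucleotides were frequent in most member promoters, marked or not. The median was 24 per 300 bases over the 41 members, between 4 (Orc4) and 35 (Rfc1 and Mcm9), against 23 for all genes with a gene end peak and 13 for all genes. The 9 members with a start but no peak by the wider rule had a median of 30, between 13 and 35. The lowest counts among the promoters printed were 8 for Mcm3 and 11 for Cdc45, which both had a peak in both lists.

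Further genes of the pathway, 61 in number and outside the list of members, were also chosen with earlier results of these data known. Of them, 43 were marked in H3.3K27M (70.5%) and 30 in H3.3WT (49.2%), beside the 28.6% and 24.8% of all genes. Both lists marked 29 of the 61, beside 22.2% of all genes. Accessory polymerase, clamp loader and helicase genes had 6 of 8 in H3.3K27M and 3 of 8 in H3.3WT, and origin firing and fork protection genes 13 and 10 of 17. Chromatin factors of replication had 13 and 11 of 18, and E2F, RB and MuvB regulators 11 and 6 of 18. By −log10 q the leading 5 in H3.3K27M were Rbl2, Ssrp1, Supt16, Wdhd1 and Rnaseh2c, and in H3.3WT Supt16, Rbl2, Lrwd1, Wdhd1 and Topbp1. Rbl2, an RB family gene, had 12.8 fold in H3.3K27M, against 12.5 in H3.3WT. Supt16 and Ssrp1 code for the histone chaperone FACT, and Supt16 had 10.7 (H3.3K27M) and 11.5 fold (H3.3WT) and Ssrp1 12.7 (H3.3K27M) and 6.93 fold (H3.3WT). Wdhd1, which ties polymerase alpha to the helicase, had 8.40 (H3.3K27M) and 15.0 fold (H3.3WT). Lrwd1, an origin complex partner, had 6.93 (H3.3K27M) and 13.6 fold (H3.3WT), Topbp1, a firing factor, 4.91 (H3.3K27M) and 11.8 fold (H3.3WT), and Rnaseh2c, of the enzyme that removes ribonucleotides, 8.84 (H3.3K27M) and 5.66 fold (H3.3WT).

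Of these further genes, 14 were marked in H3.3K27M alone and 1, Mtbp (5.18 fold), in H3.3WT alone, beside 6.39% and 2.60% of all genes. The 14 were Pole4, Dscc1, Mcmbp, Dbf4, Timeless, Tipin, Top2a, Tlk1, Hells, E2f1, E2f3, E2f8, Tfdp2 and Lin9. Their folds lay between 3.44 (Tipin) and 5.51 (E2f3), and the highest −log10 q was 12.4, at the kinase gene Tlk1 (5.32 fold). Counting peaks from 5 fold upwards only, these were 6 in H3.3K27M alone and 4 in H3.3WT alone, beside 4.22% and 3.86% of all genes. Among the members the counts were 5 in H3.3K27M alone and 5 in H3.3WT alone, and the difference between the sets was not tested.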

How the data were processed

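Peak lists of the CBFA2T2 ChIP in H3.3K27M and H3.3WT cells were used as deposited, 1 library per genotype, grouped by the sample titles. Trim Galore, MACS2 and the build mm10 are named, without versions, per the submitters' processing notes. The aligner and caller settings are not given in the sources used here. Fold enrichment (a ratio), −log10 p and −log10 q are the authors' values as deposited; the deposited score equals 10 times −log10 q within 1 unit and was not used. The smallest −log10 q was 1.31 in H3.3K27M and 1.33 in H3.3WT. Peak names carry a tag the labels do not explain.

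Summits (1-based) were assigned to gene ends of RefSeq GRCm38.p6 within 1 kb, the one of highest −log10 q standing for a gene. Peaks overlapped at 1 bp or more. Starts, strands and sequences came from the RefSeq promoter table. Python 3.11.15, pandas 2.3.3, NumPy 2.4.6, SciPy 1.17.1 and matplotlib 3.10.9 were used, and the assignment was checked on simulated peaks. Every member was named by role, with neighbours that share a peak; of the further pathway genes, the 5 strongest per list and those marked in 1 list were named. The members and lists were chosen with earlier results of these data known. Alternatives were stricter thresholds, equal list lengths, other windows and overlaps, and starts alone.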

Additional observations from a re-analysis of the deposited data

How the results depend on the processing

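Of 56 recomputed counts and shares, 48 were classed as the same and 8 as moved. Sizeable shifts were still classed as the same, such as from 28 to 20 members marked in H3.3K27M at 5 fold or more. The genes behind a count could also change. Members marked in H3.3K27M numbered 20 to 32 of 49 across thresholds, windows and list lengths (40.8 to 65.3%) and those in H3.3WT 23 to 32 (46.9 to 65.3%), beside 19.4 to 32.3% and 19.1 to 28.2% of all genes. At −log10 q of 5 or more, 6 members were marked in H3.3K27M alone (12.2%, against 5.33% of all genes), without Chaf1a and Chaf1b and with Gins2, Orc3 and Pcna. In H3.3WT alone there were 7 (14.3%, against 2.2% of all genes), with Mcm10 and Pold1 added. From 5 fold upwards, 6 were marked in H3.3WT alone (12.2%, against 3.86% of all genes), without Orc6 and Rpa1 and with Mcm10, Orc2 and Pold1. With peaks of at least 5 fold the members marked in H3.3K27M alone were 3, Mcm2, Pcna and Rfc3 (6.12%, against 4.22% of all genes). With annotated starts alone those marked in H3.3WT alone were 2 of 41, Orc6 and Rpa1 (4.88%, against 2.85% of 17492 genes). Gmnn, Gins1 and Pole have no annotated start in the source used. For the further pathway genes, alternatives chosen after seeing the data moved some counts. With peaks of at least 5 fold, 25 were marked in H3.3K27M, 19 in both lists, 6 in H3.3K27M alone and 4 in H3.3WT alone. The shares of all genes were 19.4%, 15.2%, 4.22% and 3.86%. Requiring −log10 q of 5 or more gave 3 in H3.3WT alone (against 2.2% of all genes), and so did equal list lengths (against 3.79%). Without replicates or read counts, neither the error of a fold nor the depth behind a missing peak can be given. No paired analysis was possible because each genotype had 1 library.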
